A study of Mus musculus with 6 samples.

Results

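Hedgehog signalling was examined through 9 genes of its core, Gli1, Gli2, Gli3, Ptch1, Smo, Hhip, Gas1, Cdon and Boc, in RNA sequencing of mouse muscle samples. The members were taken by gene symbol from the pathway as it is generally described, and all 9 were found among the 43432 genes of each deposited count table. The series concerns mice lacking Igf1 in fibro-adipogenic progenitors (FAPs), the connective-tissue progenitors of skeletal muscle. Its 6 libraries form a control group and a FID group of 3 each by title, and D3 stands in every title. The sources used here give neither the meaning of FID and D3, nor the genotype and strain of each group, the promoter behind the deletion, or whether a library equals an animal. The same protocol text stands under all 6 libraries. It gives tamoxifen at 100 ug per g of body weight for 5 days to mice of 12 to 13 weeks of either sex, a pause of 1 week or more, and muscle frozen in embedding medium. It also gives 1000 ng of RNA and a minimum RNA integrity number of 5.6, which allows partly degraded RNA. Extraction is described for tissue and for primary FAPs, without saying which of them these libraries hold. P-values therefore measure only the spread among the 6 libraries, which may be technical in part.

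Hedgehog ligands are secreted proteins that bind the receptor PTCH1 on the receiving cell. Without ligand, PTCH1 holds back the membrane protein SMO. With ligand, SMO gathers in the primary cilium and the transcription factors GLI2 and GLI3 turn from repressing to activating forms, which switch on Gli1, Ptch1 and Hhip as direct targets. GAS1, CDON and BOC are co-receptors that help ligand reach PTCH1, and HHIP binds ligand and removes it. In skeletal muscle, FAPs carry primary cilia and respond to Hedgehog ligand, and this signal is known for restraining their turn into fat cells after injury.

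All libraries held connective-tissue RNA, but not that of FAPs alone. Pdgfra, the defining FAP receptor, stood at 457 to 871 CPM (gene counts scaled with TMM factors to a common library size) over the 6 libraries, and the matrix gene Dcn at 889 to 1683 CPM. Adgre1, a macrophage marker, stood at 171 to 436 CPM and the endothelial Pecam1 at 310 to 954 CPM, whereas Ckm, a defining transcript of muscle fibres, reached at most 1.19 CPM. The label of a FAP pathway can therefore not be tied to 1 cell type. In such mixed RNA, fewer cells of a type and less RNA per cell cannot be told apart. Gene counts summed to 5201853 in control 1, the shallowest library, and to 8750157 to 10093757 in the other libraries. Igf1 averaged 100.2 ± 37.3 CPM over the controls against 99.2 ± 15.3 CPM over FID (SD, n = 3 per group) with overlapping groups, so it gives no support to the labels, and groups are named by label.

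The 9 members covered a wide range of levels. Levels between genes were compared as CPM per kb of merged exon, averaged over all 6 libraries and given with the SD over them. Gas1 was highest at 67.2 ± 7.93 CPM per kb and ranged from 56.5 to 77.9. Smo followed at 17.5 ± 2.21, Boc at 7.67 ± 2.51 and Cdon at 6.50 ± 0.959 CPM per kb. Smo and all 3 co-receptors were thus above the 3 GLI transcription factors in mean level per length. Gli3 stood at 3.11 ± 1.05, Ptch1 at 1.33 ± 0.576, Gli2 at 0.590 ± 0.524, Gli1 at 0.392 ± 0.301 and Hhip at 0.346 ± 0.189 CPM per kb. The ranges of Gas1, Smo and Boc did not touch each other, nor did those of Cdon and Gli3. Boc and Cdon did not differ beyond their spread, with Boc above Cdon in 4 of 6 libraries, and neither did Gli1 and Hhip, with Gli1 above Hhip in 2 of 6. Gli3 above Ptch1, Ptch1 above Gli2 and Gli2 above Gli1 each held in 6 of 6 libraries, although the ranges over libraries overlapped. Merged exons include those of rarely used transcripts, so a gene with many annotated ends such as Ptch1, with 14.19 kb of exon, is given a low level per length.

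**Figure D1:**
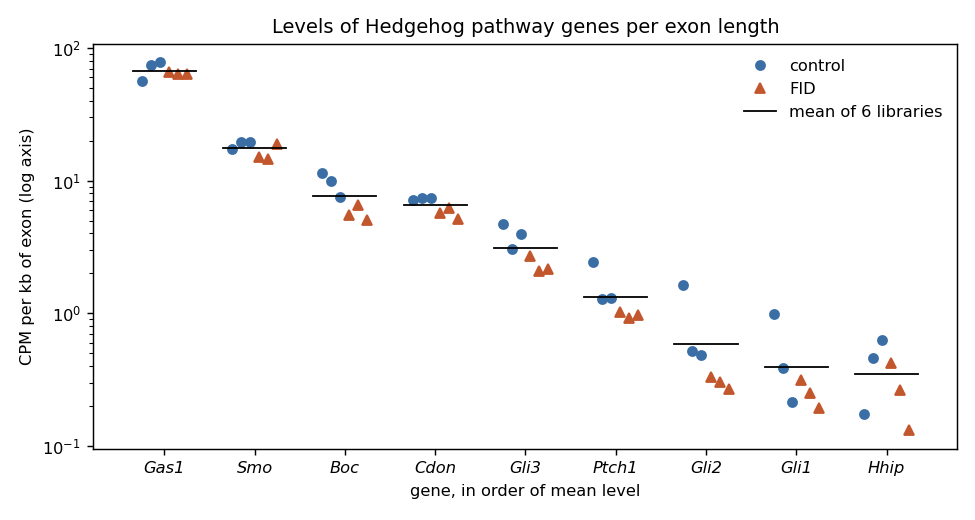
Level of each member in each library, in CPM per kb of merged exon on a log axis, with circles for the 3 control and triangles for the 3 FID libraries and a bar for the mean of 6 libraries. Gas1 lies at 56.5 to 77.9 CPM per kb in all libraries, while Gli1 and Hhip average 0.392 and 0.346 CPM per kb.

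None of the 9 members passed edgeR's quasi-likelihood test of FID against control after Benjamini-Hochberg adjustment over 12881 genes, where 0 genes (0%) passed. All 9 had a log2 fold change below 0 with TMM scaling, with a median of -0.74, against 52.2% of all tested genes below 0 and a median of -0.02; with scaling to FAP markers instead, Smo, Gas1 and Cdon lay above 0. An unadjusted p under 0.05 was reached by 5 members, all lower in FID, against 9.21% of all tested genes with such a p and lower in FID. The same 5 members, Gli2, Gli3, Ptch1, Cdon and Boc, had every FID library below every control library, which 12.3% of all tested genes showed. Both traits were also frequent among 20 FAP markers. Of these, 10 had an unadjusted p under 0.05 and were lower in FID, and 9 had every FID library below every control library. By DESeq2, Boc (adjusted p 0.0351) and Gli3 (adjusted p 0.0374) passed, where 5.78% of genes passed. By limma-voom 0 members passed, and with its sample weights Boc (adjusted p 0.0251) and Cdon (adjusted p 0.0442) passed, where 11.9% of genes passed. All 9 members passed the filter on low counts.

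**Figure D2:**
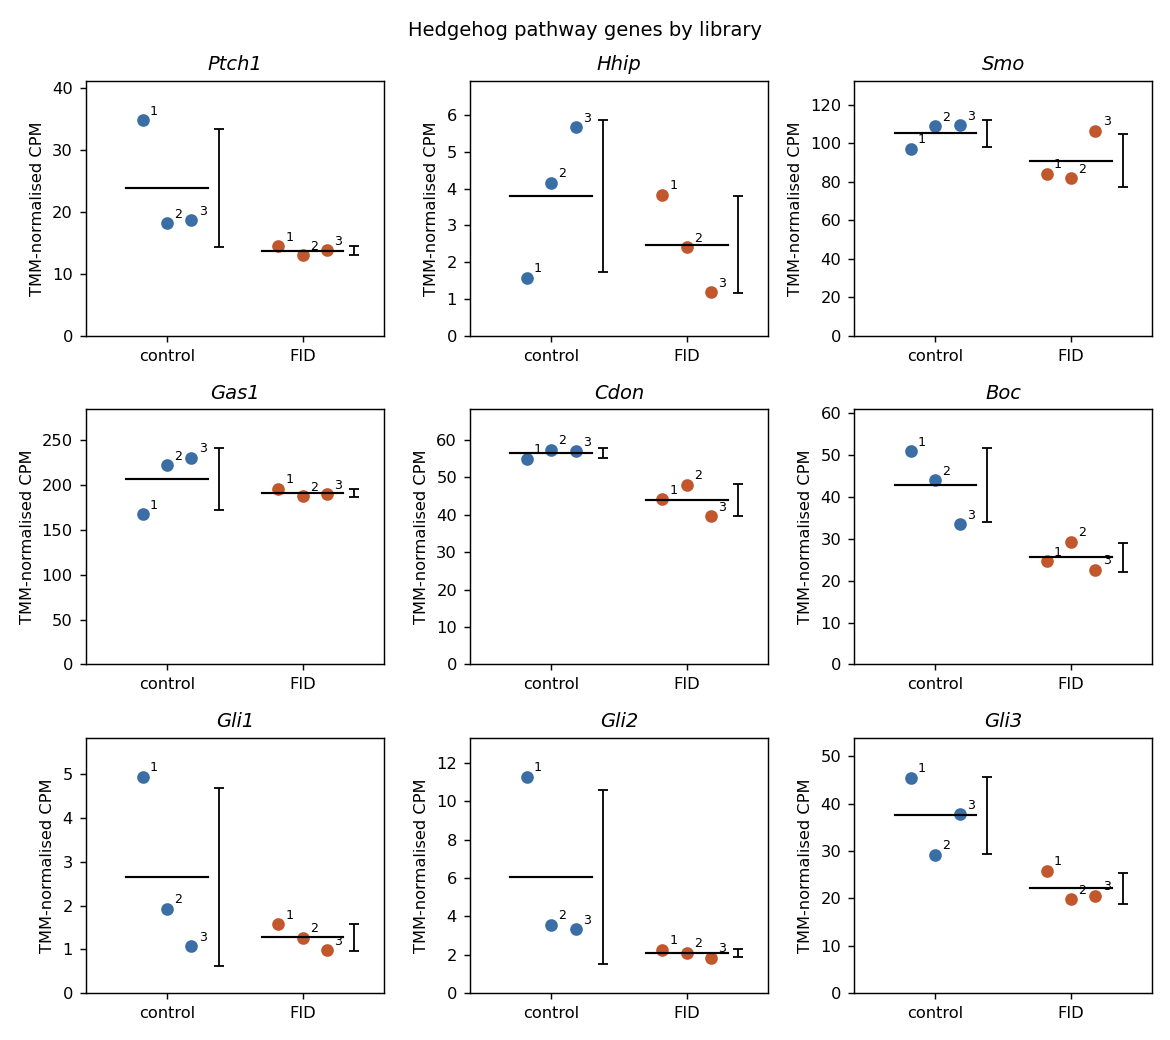
TMM-normalised CPM of each member by library, with the replicate number beside each point, a bar for the group mean and whiskers to the side for ± 1 SD (n = 3). The FID points lie below all control points for Ptch1, Cdon, Boc, Gli2 and Gli3, and control 1 is the highest library for Ptch1, Boc, Gli1, Gli2 and Gli3.

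Ptch1, the receptor and itself a direct target (ENSMUSG00000021466, mm10 chromosome 13, 63508328 to 63573598, minus strand, coding for protein), read 34.8, 18.1 and 18.6 CPM across control libraries 1, 2 and 3, against 14.4, 13.0 and 13.8 CPM across FID libraries 1, 2 and 3. The 3 FID libraries lay close together and under all controls, and control 1 stood far above the other libraries. The means were 23.9 ± 9.48 and 13.8 ± 0.705 CPM, and the log2 fold change came to -0.78 (SE 0.27, 95% interval -1.41 to -0.15, edgeR adjusted p 0.196). Without control 1 the log2 fold change was -0.42.

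Hhip, the ligand-binding antagonist and another direct target (ENSMUSG00000064325, chromosome 8, 79965851 to 80058006, minus strand, coding for protein), had few reads, namely 8, 41 and 58 counts for the controls, by replicate, against 34, 23 and 11 for FID. In CPM the controls read 1.58, 4.16 and 5.66, against 3.83, 2.41 and 1.19 for FID. The groups overlapped, and control 1 was here the lowest control library and not the highest. The log2 fold change was -0.66 (SE 0.54, 95% interval -1.93 to 0.60, edgeR adjusted p 0.534). It was -0.99 without control 1, -1.10 without FID 1, -0.26 without control 3 and -0.33 without FID 3.

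Gli1 (ENSMUSG00000025407, chromosome 10, 127329882 to 127341974, minus strand, coding for protein) encodes the activator whose transcript is the usual readout of the pathway. It had few reads, with 25, 19 and 11 for the controls against 14, 12 and 9 for FID. Scaled to CPM, the controls read 4.94, 1.93 and 1.07, against 1.58, 1.26 and 0.972 for FID. Control 1 stood above the rest, and the other 5 libraries overlapped. The means were 2.65 ± 2.03 and 1.27 ± 0.303 CPM, and the log2 fold change came to -0.96 (SE 0.59, 95% interval -2.33 to 0.41, edgeR adjusted p 0.402) that was -0.24 without control 1. The 95% interval thus held both a lower and a higher level of Gli1 in FID.

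Promoter sequence was at hand for 7 of the 9 members, as RefSeq windows (GRCm38.p6) from 250 bases before to 50 bases after the start of transcription. The GLI consensus GACCACCCA (TGGGTGGTC on the other strand) was searched on both strands, together with its first 8 letters, GACCACCC, which any full match also holds. Neither was found in the windows of Gli2, Gli3, Ptch1, Smo, Hhip, Gas1 or Cdon, and over all 32851 windows of the same length 0.253% held the full motif and 0.807% the shorter form. With shares this low, a miss in 7 windows says little. Exact matching in such short windows cannot show whether GLI sites serve these genes. The GC box GGGCGG, a general promoter motif bound by SP1 that was searched on both strands, was found in 5 of these 7 windows, those of Gli2, Gli3, Ptch1, Hhip and Gas1, and in 35.7% of all windows. In the 250 bases before the start, the members' windows had a median GC content of 68.4%, with 42.8% in Cdon and 78.4% in Ptch1, against 52.4% over all windows. The Cdon bases (chr9:35451826-35452075, plus strand) lie inside the annotated Cdon gene, which begins at 35421128, and 31 of them lie in its own exon. They therefore describe an internal start of Cdon. The windows of Ptch1 and Hhip are shown in lower case, because these are the direct targets of the pathway with a window at hand, with GC boxes in capitals. The Ptch1 bases (chr13:63565736-63565985, minus strand) lie inside the annotated Ptch1 gene but in none of its exons, and the Hhip bases (chr8:80058009-80058258, minus strand) lie in no annotated gene.
Ptch1: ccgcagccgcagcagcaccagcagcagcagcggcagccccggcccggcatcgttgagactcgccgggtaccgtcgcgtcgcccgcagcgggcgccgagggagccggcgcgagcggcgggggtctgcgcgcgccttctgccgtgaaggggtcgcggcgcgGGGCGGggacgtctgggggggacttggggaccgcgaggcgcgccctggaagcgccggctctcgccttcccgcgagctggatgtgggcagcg
Hhip: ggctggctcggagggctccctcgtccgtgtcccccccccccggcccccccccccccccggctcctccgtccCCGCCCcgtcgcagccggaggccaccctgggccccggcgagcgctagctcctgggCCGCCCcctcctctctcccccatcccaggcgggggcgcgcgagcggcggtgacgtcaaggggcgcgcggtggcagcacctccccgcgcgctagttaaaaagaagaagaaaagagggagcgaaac

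Gli2 had the lowest log2 fold change of the 9 members. Gli2, the main activator (ENSMUSG00000048402, chromosome 1, 118834132 to 119053619, minus strand, coding for protein), read 11.3, 3.55 and 3.32 CPM across control libraries 1, 2 and 3, against 2.25, 2.10 and 1.84 CPM across FID libraries 1, 2 and 3, from 57, 35 and 34 against 20, 20 and 17 counts. All FID libraries lay below all controls, and control 1 was over the next highest library by a wide margin. The log2 fold change was -1.49 (SE 0.52, 95% interval -2.71 to -0.27, edgeR adjusted p 0.198), and it was -0.73 without control 1.

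Gli3, which in the absence of ligand mainly acts as a repressor (ENSMUSG00000021318, chromosome 13, 15463235 to 15730026, plus strand, coding for protein), read 45.5, 29.2 and 37.8 CPM across control libraries 1, 2 and 3, against 25.8, 19.8 and 20.5 CPM across FID libraries 1, 2 and 3. The groups did not overlap. The means were 37.5 ± 8.15 and 22.1 ± 3.26 CPM, and the log2 fold change came to -0.76 (SE 0.20, 95% interval -1.23 to -0.29, edgeR adjusted p 0.143). Leaving out any 1 library gave -0.91 to -0.60. Gli3 was the most abundant of the 3 GLI genes per exon length in every library and made up 64.3% of their summed level in control 1 and 77.1% to 84.9% in the other libraries. Gli2 made up 22.3% in control 1 and at most 13.1% elsewhere.

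Smo, the signal transducer (ENSMUSG00000001761, chromosome 6, 29735503 to 29761365, plus strand, coding for protein), read 97.3, 109 and 109.6 CPM across control libraries 1, 2 and 3, against 84.4, 82.1 and 107 CPM across FID libraries 1, 2 and 3. FID 3 lay within the control range and the other FID libraries below it. The log2 fold change was -0.21 (SE 0.14, 95% interval -0.54 to 0.12, edgeR adjusted p 0.449), and it was -0.34 without FID 3.

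Of the 3 co-receptors, Boc, an immunoglobulin-family surface protein (ENSMUSG00000022687, chromosome 16, 44485049 to 44558897, minus strand, coding for protein), read 50.8, 44.0 and 33.4 CPM across control libraries 1, 2 and 3, against 24.7, 29.3 and 22.6 CPM across FID libraries 1, 2 and 3. The groups did not overlap. The means were 42.7 ± 8.79 and 25.5 ± 3.44 CPM, and the log2 fold change came to -0.74 (SE 0.19, 95% interval -1.19 to -0.29, edgeR adjusted p 0.140), the smallest p among the 9 members.

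Cdon, its close relative (ENSMUSG00000038119, chromosome 9, 35421128 to 35507652, plus strand, coding for protein), varied least among controls, at 55.0, 57.4 and 56.9 CPM in control 1, 2 and 3. It stood at 44.1, 48.0 and 39.6 CPM in FID 1, 2 and 3, all below the controls. The log2 fold change was -0.36 (SE 0.12, 95% interval -0.65 to -0.08, edgeR adjusted p 0.189), and it stayed between -0.43 and -0.29 with any 1 library left out.

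Gas1, a membrane-anchored co-receptor (ENSMUSG00000052957, chromosome 13, 60174405 to 60177365, minus strand, coding for protein), read 167, 222 and 231 CPM across control libraries 1, 2 and 3, against 196, 188 and 189.8 CPM across FID libraries 1, 2 and 3. The FID libraries lay within the control range. The log2 fold change was -0.11 (SE 0.15, 95% interval -0.47 to 0.24, edgeR adjusted p 0.720), so the interval leaves room for a lower or a slightly higher level. It was -0.25 without control 1 and -0.011 without control 3. Gas1 made up 75.3% to 86.3% of the summed level of the 3 co-receptors per exon length over the 6 libraries.

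**Figure D3:**
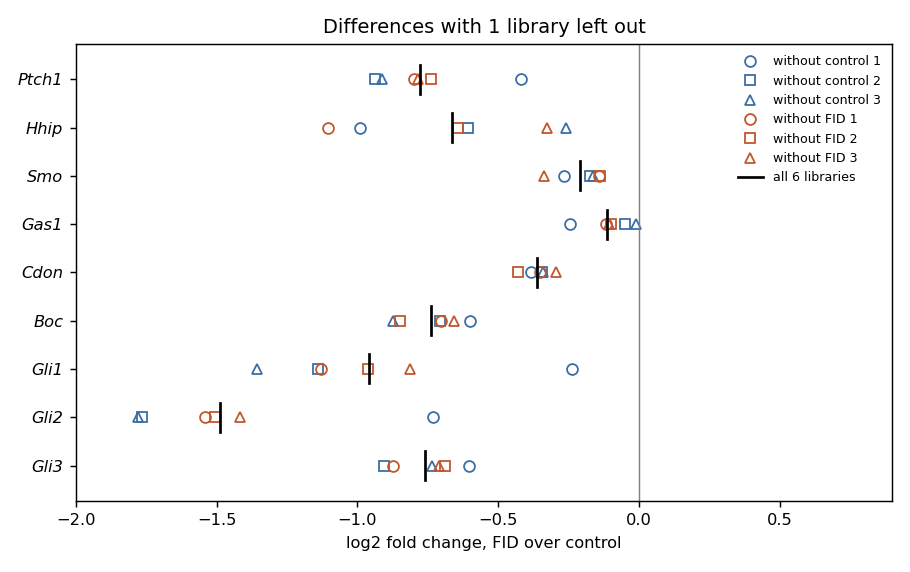
Log2 fold change of FID over control for each member with all 6 libraries (black bar) and with each library left out in turn (open symbols, blue for control and orange for FID). Without control 1 the values of Gli1, Gli2 and Ptch1 move to -0.24, -0.73 and -0.42, and with TMM scaling no symbol crosses 0, while scaling to FAP markers puts Smo, Gas1 and Cdon above 0.

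Markers of several cell types moved with the groups or with control 1. Of 20 FAP markers, 18 had a log2 fold change below 0, and their summed level was 7821 to 8212 CPM in control and 6394 to 7556 CPM in FID. Ly6a, a stem cell antigen gene and 1 of the 2 markers above 0, read 434 to 662 CPM over the controls, against 497, 2327 and 1889.6 CPM across FID libraries 1, 2 and 3. Without it the sums were 7387 to 7551 CPM in control and 4725 to 5897 CPM in FID. All 15 macrophage markers lay above 0, with sums of 3849.9 to 6294 CPM in control and 8217 to 10932 CPM in FID. The 10 endothelial markers summed to 4707 CPM in control 1 and to 1326 to 2147 CPM in the other libraries. The 10 pericyte and smooth muscle markers summed to 2749 CPM in control 1 and to 1259 to 1610 CPM elsewhere, and the 8 tenocyte markers to 2517 CPM in control 1 and 424.9 to 1174 CPM elsewhere. The 10 Schwann cell markers summed to 348 to 417 CPM in control and 375 to 410.1 CPM in FID. The 10 satellite cell and myoblast markers summed to 482 CPM in control 1 and to 305 to 360.03 CPM elsewhere, with Pax7 at 0 in control 3, and the 10 myofibre markers to 89.4 CPM in control 1 and to 17.7 to 41.6 CPM elsewhere. The part of these shifts in the values of the Hedgehog genes was not tested.

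When libraries were scaled to the FAP markers instead of to all genes, the log2 fold changes of all 9 members moved upwards: those of Gli1, Gli2, Gli3, Ptch1, Hhip and Boc came closer to 0, Cdon crossed 0 to a smaller difference, and Smo and Gas1 crossed it to larger ones. This scaling moved the median log2 fold change of all tested genes from -0.02 to 0.47, and 13.8% of all genes then lay below 0. The members had a median of -0.26, and 6 of 9 lay below 0. Gli2 had -1.01 (95% interval -2.08 to 0.06), Gli1 -0.49, Ptch1 -0.29, Gli3 -0.28, Boc -0.26 and Hhip -0.23, while Cdon, Smo and Gas1 had 0.12, 0.29 and 0.37. The 95% interval of each of the 9 members then included 0, and edgeR's adjusted p ranged from 0.132 for Gli2 to 0.733 for Hhip. On this scale Gli2 was lower in every FID library than in every control library, which 0.955% of all genes showed, and Gas1 was higher in every FID library than in every control library, which 48.6% of all genes showed. The margin of Gli2 was thin, with 9.37, 3.04 and 2.83 CPM in controls 1, 2 and 3, against 2.41, 2.41 and 2.47 CPM in FID 1, 2 and 3.

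**Figure D4:**
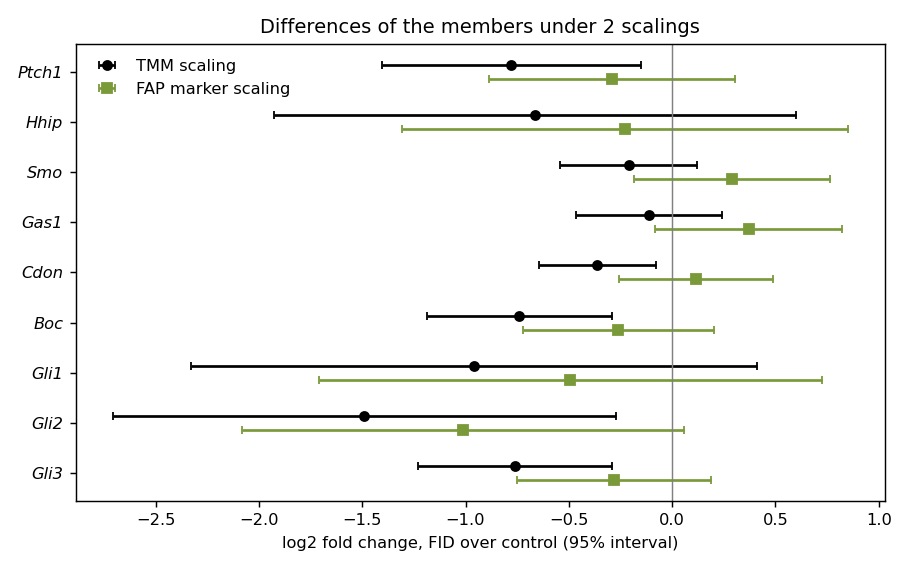
Log2 fold change of FID over control with 95% intervals for each member, scaled by TMM factors (black circles) or to the FAP markers (green squares). With TMM factors all 9 values lie below 0 and the intervals of Ptch1, Cdon, Boc, Gli2 and Gli3 stay below 0, whereas with FAP marker scaling every interval includes 0 and Smo, Gas1 and Cdon lie above 0.

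Of the 3 ligand genes only Dhh gave more than a few reads. Dhh, known in muscle as the ligand made by Schwann cells, read 14.2, 6.99 and 4.78 CPM across control libraries 1, 2 and 3, against 6.54, 10.8 and 6.48 CPM across FID libraries 1, 2 and 3. The groups overlapped, and the log2 fold change came to -0.08 (SE 0.42, edgeR adjusted p 0.935). Shh had 2 counts in FID 2 and 0 in the other libraries, and Ihh had at most 2 counts in any library. A count of 0 allows up to 3 counts, or 0.593 CPM in control 1 and 0.293 to 0.338 CPM in the other libraries, for counting error only.

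All 6 genes of ligand maturation and release had log2 fold changes below 0 with TMM scaling, with a median of -0.40, and 1 reached an unadjusted p under 0.05, against 52.2% and, for such a p and lower, 9.21% of all tested genes; with scaling to FAP markers Hhat and Disp1, among others, lay above 0. Over all other pathway genes tested, 50 of 63 lay below 0 with TMM scaling and 18 of 63 with scaling to FAP markers. The gene with such a p was Scube2, whose secreted product helps release lipid-bearing ligand, which read 7.91, 3.24 and 2.15 CPM across control libraries 1, 2 and 3, against 2.03, 0.945 and 0.540 CPM across FID libraries 1, 2 and 3. Its log2 fold change came to -1.86 (SE 0.64, edgeR adjusted p 0.196), from 5 to 40 counts. Hhat, which attaches a fatty acid to the ligand, had -0.28 (SE 0.19), Disp1, a ligand exporter, -0.16 (SE 0.17) and Scube1 -0.83 (SE 0.66). The value of Scube1 ranged from -1.63 without FID 2 to -0.23 without control 1, and was -0.39 without FID 1, and that of Scube2 was -1.20 without control 1.

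Among 10 further receptors, binders and brakes, 9 were tested, 6 lay below 0 and 3 above, with 52.2% of all tested genes below 0, and the median was -0.50. Lrp2 had 0 counts in all 6 libraries. Gpr161, a ciliary receptor that keeps the pathway off, had -0.50 (SE 0.15, edgeR adjusted p 0.167) and its groups did not overlap; with scaling to FAP markers it lay at -0.020. Gpc3, a glypican that competes with PTCH1 for ligand, had -0.82 (SE 0.41), which was -0.48 without FID 3 and -0.52 without control 1. Sufu, which holds GLI proteins in the cytoplasm, had -0.25 (SE 0.14) with TMM scaling and 0.24 with scaling to FAP markers.

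Of the genes that phosphorylate or degrade GLI proteins, 9 of 14 lay below 0, against 52.2% of all tested genes, with a median of -0.09. Dyrk2, a kinase that marks GLI2 and GLI3 for degradation, had -0.62 (SE 0.24, edgeR adjusted p 0.224) and was the only 1 of the 14 with an unadjusted p under 0.05. Stk36 had -0.64 (SE 0.37), Gsk3b, which phosphorylates GLI3 on the way to processing, -0.23 (SE 0.13), and Grk2, a kinase that activates SMO, 0.28 (SE 0.15). Stk36 was -0.26 without control 2. With scaling to FAP markers Gsk3b lay at 0.26, Dyrk2 at -0.15 and Grk2 at 0.77 (edgeR adjusted p 0.0276). Under that scaling 3178 of all 12881 tested genes passed, 3153 of them higher in FID.

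Of 20 genes of the primary cilium, 16 lay below 0 with a median of -0.12, and 6 had an unadjusted p under 0.05, all of them lower in FID, against 52.2% of all tested genes below 0 and 9.21% lower with such a p. Evc and Evc2 encode partners that relay the signal from SMO at the base of the cilium. Evc read 39.6, 48.9 and 47.7 CPM across control libraries 1, 2 and 3, against 34.4, 27.5 and 32.9 CPM across FID libraries 1, 2 and 3, and the log2 fold change came to -0.52 (SE 0.15, edgeR adjusted p 0.159). Evc2 had -0.44 (SE 0.15, edgeR adjusted p 0.198), Ift80, a part of the intraflagellar transport complex, -0.44 (SE 0.14, edgeR adjusted p 0.179), and Dync2h1, the motor of its return transport, -0.64 (SE 0.21, edgeR adjusted p 0.186). With scaling to FAP markers Evc lay at -0.040, Dync2h1 at -0.16, Evc2 at 0.039 and Ift80 at 0.041.

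Genes reported elsewhere as GLI targets, the members left out, numbered 16, of which 14 were tested. With TMM scaling 13 lay below 0 with a median of -0.56, and 5 had an unadjusted p under 0.05, all lower in FID, against 52.2% and 9.21% of all tested genes. Sfrp1, a secreted Wnt antagonist, read 342, 300.1 and 337 CPM across control libraries 1, 2 and 3, against 162, 172 and 196 CPM across FID libraries 1, 2 and 3. These groups lay far apart, and the log2 fold change came to -0.88 (SE 0.13, edgeR adjusted p 0.122, DESeq2 adjusted p 4.36e-06). The forkhead factor gene Foxc2 had -1.08 (SE 0.36, edgeR adjusted p 0.189), and the survival gene Bcl2 -0.65 (SE 0.25, edgeR adjusted p 0.227). The repressor gene Snai1 had -0.40 (SE 0.15, edgeR adjusted p 0.218) and lay at 0.073 with scaling to FAP markers. Scaling to FAP markers gave -0.38 for Sfrp1 (edgeR adjusted p 0.176), -0.62 for Foxc2 and -0.16 for Bcl2. Many of these genes answer to other signals as well, and 1 of them, Osr1, is also among the FAP markers.

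**Figure D5:**
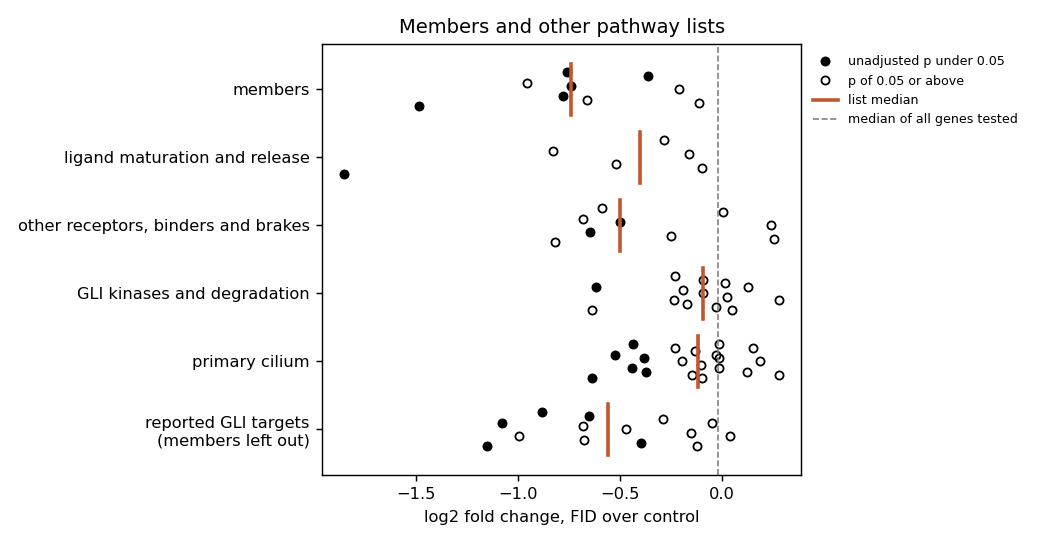
Log2 fold changes of FID over control, TMM scaling, for the 9 members and the tested genes of 5 other lists, with filled points for an unadjusted p under 0.05, an orange bar for the list median and a dashed line for the median of all tested genes. The median is -0.74 for the members, -0.56 for the reported targets, -0.12 for the primary cilium and -0.09 for the GLI kinases, and with scaling to FAP markers Smo, Gas1 and Cdon among the members lie above 0.

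Across the 6 libraries the direct targets did not share a single profile. Log2(CPM + 0.5) of Gli1 and Ptch1 had a Pearson r of 0.89, and both were highest in control 1, whereas Hhip had -0.26 with Gli1 and -0.14 with Ptch1. Gli2 and Ptch1, both far highest in control 1, had an r of 0.99. Hhip and Gas1, for which control 1 was the lowest control library, had an r of 0.83. Values of r without control 1 are not given here. The genes most like Gli1 were Tgfa, Sh2b2, Zmiz1, Slc9a3r2 and Bsdc1, with r of 0.996 to 0.999. Those most like Ptch1 were Tmem245, Pde12, Zfp609, Rc3h1 and Nrbp2 (r 0.993 to 0.998), and those most like Hhip were Kif20b, Cep290, Cast, Zmym6 and Rad50 (r 0.977 to 0.991). These points share their libraries and depth, and high values of r were common. In all, 350 tested genes had an r over 0.95 with Gli1, 236 with Ptch1 and 26 with Hhip.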

How the data were processed

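RNA sequencing libraries from 6 samples labelled skeletal muscle (3 control, 3 FID) were analysed. The authors deposited raw counts of reads per Ensembl gene. The submitters' processing notes name the build mm10 and, in no stated role, HTSeq, STAR, Bowtie2 2.5.4, cutadapt, DESeq2 and SAMtools, and per the labels' protocols the kit kept strand. The strand setting of the counting is not given in the sources used here. Exons of genes on the opposite strand overlap those of Gli1 (Arhgap9, 62 bases), Gli3 (Gm6556, 188 bases) and Hhip (Gm27820, 175 bases), where reads may be shared. Gm48488 (589 bases over Gas1) and Gm47200 (265 bases over Gli1) also lie on the opposite strand but are not among the counted genes. If strand was ignored in counting, their reads may be included in the counts of Gas1 and Gli1. Reads with more than 1 alignment or an ambiguous gene were set aside, per the deposited files; such non-gene entries were 9.60% to 10.9% of each total and were left out. Symbols matched 42462 of 43432 genes (97.8%). Positions and exon lengths are from GENCODE M21 on the same assembly.

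Genes were filtered with filterByExpr (minimum count 10, minimum total 15), leaving 12881, and scaled with TMM. FID was compared with control by edgeR 4.0.16 (glmQLFit, glmQLFTest, two-sided, group only, Benjamini-Hochberg at 0.05 over all tested genes). The SE is the absolute log2 fold change over the square root of F, and 95% intervals built on it are approximate. The steps were tested on simulated data, where 48% of 50 genes set to 2-fold and 46% of 50 set to 0.5-fold were recovered. At 4-fold and 0.25-fold, 96% and 94% were recovered. In the real data 0 genes passed, although log2 fold changes ran from -4.85 to 4.31 and the smallest edgeR adjusted p was 0.109. The simulated recovery may thus overstate that in these libraries. Differences of 2-fold or less could be missed, and so could larger ones. Alternatives were DESeq2 1.42.0 and limma 3.58.1 (voom, with or without sample weights), other size factors, no filter, the replicate number as a block, and leaving out each library. FAP marker scaling takes the median of ratios over 20 FAP markers. Within groups, libraries differed by far more than sampling noise (chi-square per degree of freedom 14.1 to 46.0), so none was taken for a copy. The text names all members, each ligand, up to 4 genes of smallest p per other list, defining markers, and the 5 genes most like each of Gli1, Ptch1 and Hhip. Lrp2, Osr1, Ly6a, Mgrn1, Prkacb, Ift52 and Kif3b were named after their values were seen. The members and lists were chosen with earlier results of these data known. Values of 1 further pathway gene are not reported here.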

Additional observations from a re-analysis of the deposited data

How the results depend on the processing

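Each group held 3 libraries, and Gli1 rested on 9 to 25 counts a library and Hhip on 8 to 58, so their values carry a wide counting error. Of the members' log2 fold changes under 14 alternatives, 119 kept their direction and their side of the threshold and 4 passed it. Reversals among the members came from scaling to FAP markers, which gave 0.12 for Cdon, 0.37 for Gas1 and 0.29 for Smo. The members' median was -0.26 under that scaling and -0.80 to -0.42 with 1 library left out, the latter without control 1. Members past the adjusted threshold numbered 2 by DESeq2 and 2 by limma-voom with sample weights, and 0 with any library left out. Over all genes the count was 0 in edgeR, 760 by DESeq2, 1531 with sample weights, 269 with no filter on low counts, 3178 (3153 of them higher in FID) with scaling to FAP markers, and 0 to 359 with 1 library left out, the latter without FID 1; without control 1 it was 3. The share of higher genes among those with an unadjusted p under 0.05 went from 51.6% to 98.5% with scaling to FAP markers.

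Among the other pathway genes, 2 passed by DESeq2, 12 with sample weights and 1 with no filter (Sfrp1), all of them lower in FID. Over all genes 5.78% passed by DESeq2, 11.9% with sample weights and 269 of 21380 with no filter. With scaling to FAP markers 5 of 63 passed, Grk2, Mgrn1, Prkacb, Ift52 and Kif3b, all of them higher in FID. Of all 12881 tested genes 3178 passed under it, 3153 of them higher. Under the same scaling 18 of 63 pathway genes lay below 0 (50 with TMM factors) and the median was 0.30. That scaling also reversed Dhh (0.40), Disp1 (0.31), Gsk3b (0.26), Sufu (0.24), Hhat (0.20), Snai1 (0.073), Evc2 (0.039) and Ift80 (0.041). Dhh was 0.12 by limma-voom and 0.15 with sample weights, and ranged from -0.38 to 0.43 with 1 library left out, above 0 without control 1 (0.43), FID 1 (0.05) or FID 3 (0.04). The cause of these changes was not tested.

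The titles number the libraries 1 to 3 in both groups. Deviations from the group means of same-numbered libraries had correlations of 0.00022, -0.31 and 0.33 over genes. Control 1 correlated best with FID 2 (0.32), and control 3 with FID 3 (0.33). Deviations within a group of 3 are tied to each other, so these values cannot show whether same-numbered libraries were paired. With the replicate number as a block, 0 genes passed, the members' median was -0.73 and that of the other pathway genes -0.17.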
